A study of Mus musculus with 4 samples.

Results

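Solute carriers are membrane proteins that move nutrients, ions, metals and metabolites across the plasma membrane and the membranes of organelles, and their genes are numbered by sequence family. In blood progenitors they supply amino acids, folates and iron for growth and for haem synthesis, and the carriers of the inner mitochondrial membrane link the cytosol to respiration. Their transcripts were described here in lineage-negative bone marrow of mice with and without Mtg16 (symbol Cbfa2t3), a corepressor of the ETO family that works through DNA-binding partners such as the E proteins. The genes were taken by symbol, as Slc followed by a family number, the letter a and a member number, and 7 genes, Slc4a1, Slc2a1, Slc7a5, Slc6a15, Slc11a2, Slc40a1 and Slc25a37, were left out by name. On the arrays 255 such genes had a probe with a single gene symbol, and 136 of them, from 39 families, lay in the brighter 50% of all probes by mean signal over the 4 arrays. These 136 genes, of 8445 genes tested in all, are called members below.

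The Mtg16-null mice were females of 8 to 12 weeks from backcross generation N4 into C57BL/6, and the wild-type mice were C57BL/6 females of the same age range. Each array carried RNA of lineage-negative marrow from femur and tibia, pooled from 4 mice. Each genotype had 2 arrays, 1 in each of 2 array lots, so that every null array had a wild-type array of its own lot. The labels do not give the targeted allele, nor whether each array had a pool of its own. The spread behind every p-value may therefore be technical.

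Cbfa2t3 itself read 95520 and 118572 signal units on the null arrays and 80854 and 100256 units on the wild-type arrays, which overlap, and where its probe lies relative to the deleted part is not known here. All directions therefore rest on the labels. All 6 stem and progenitor markers of a marker list, Kit and Cd34 among them, were in the brighter 50%, as were 10 of 10 late neutrophil and 9 of 10 erythroid markers. Only 3 of 6 B cell markers, 3 of 6 T and natural killer cell markers and 3 of 6 monocyte and macrophage markers were. The summed signal of the 10 late neutrophil markers was 154609 and 144275 units on the null arrays and 1335943 and 1451276 on the wild-type arrays. For the 7 early granulocyte markers the sums were 4112757 and 3460852 on the null arrays against 1689228 and 1602691 on the wild-type arrays. Summed signal of late neutrophil markers was thus lower, and that of early granulocyte markers higher, on both null arrays. At a limma unadjusted p under 0.05, 10 of 10 late neutrophil markers were lower, beside 6.83% of all genes. Of the early granulocyte markers 6 of 7 were higher, beside 9.65% of all genes. Mpo was the exception, with 1703094 and 973204 units on the null arrays and 993744 and 951401 on the wild-type arrays, which overlap. Of the 6 stem and progenitor markers 2 were higher and 0 lower at that threshold. The log2 differences, null minus wild type, were 1.94 for Slamf1, 1.48 for Cd34, 0.51 for Flt3, 0.31 for Meis1, -0.01 for Gata2 and -0.19 for Kit. Of the 9 erythroid markers tested 7 were lower and 0 higher, beside 6.83% and 9.65% of all genes. In the erythroid list the sums, mostly of Hba-a1, were 617013 and 544954 on the null arrays against 990933 and 829835 on the wild-type arrays. For 5 megakaryocyte markers they were 913492 and 796653 on the null arrays against 477702 and 475243 on the wild-type arrays, a sum made up mostly of Pf4 and Ppbp, while Vwf of the same list had a log2 difference of -0.88. Their part in the differences of the carrier genes was not tested, and in bulk marrow fewer cells of a type and less RNA per cell cannot be told apart.

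The share of carriers in the brighter 50% of probes differed by substrate. All 5 nucleotide sugar carriers that the symbol rule took were kept, and of their family, Slc35, the rule takes only names with the letter a. Kept too were 27 of 33 mitochondrial carriers, 16 of 20 zinc carriers and 25 of 43 amino acid carriers. Against these stood 9 of 31 carriers of sodium, protons, calcium, potassium, chloride and bicarbonate and 4 of 15 organic ion carriers. The filter lay at a mean log2 signal of 8.70. Slc7a4, the member just inside it, had a mean log2 signal of 8.81 and a log2 difference, null minus wild type, of -1.36. Slc25a51, a mitochondrial carrier just outside it, had a mean of 8.64 and a difference of -1.23. Since probes differ in brightness for the same amount of RNA, levels of different genes are not compared below. The 5 members with the highest mean signal were Slc25a5, Slc16a6, Slc38a5, Slc39a7 and Slc25a3. Slc25a5, the ADP and ATP exchanger of mitochondria, read 617183 and 408376 units on the null arrays and 707938 and 400171 on the wild-type arrays. Both arrays of lot 1 were above both arrays of lot 2, and the genotypes overlapped.

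**Figure D1:**
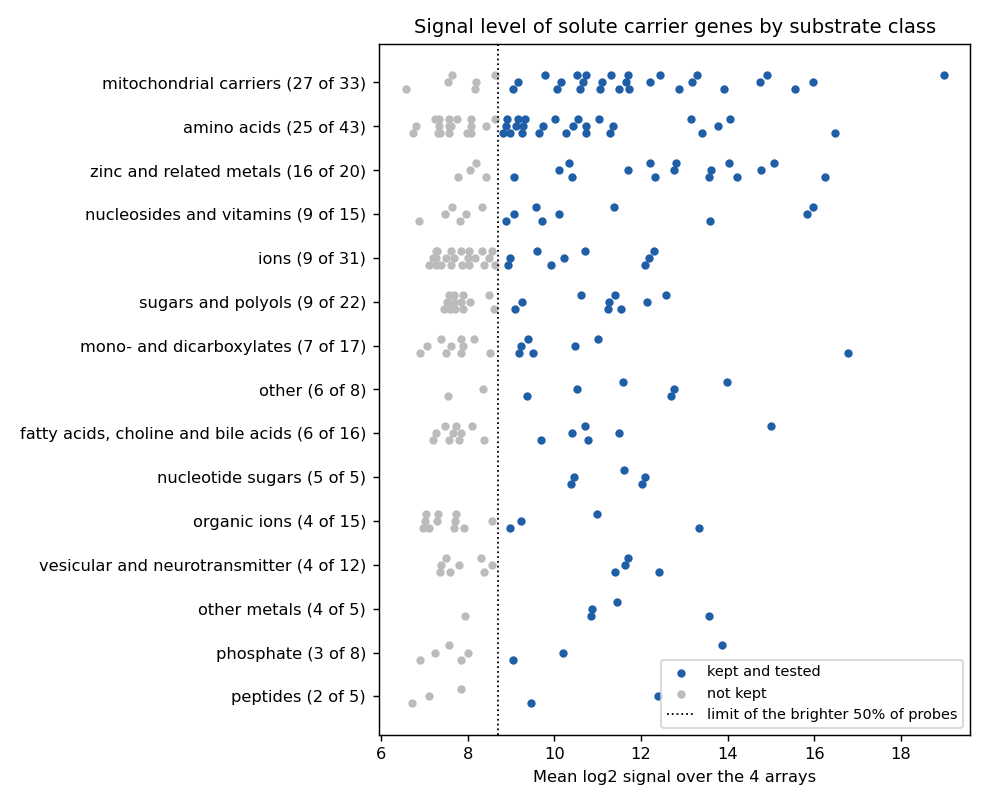
Mean log2 signal over the 4 arrays (x axis) of the 255 solute carrier genes with a probe, by substrate class (y axis, with the number kept of the number with a probe), blue for the 136 kept and grey for the 119 not kept. The dotted line at 8.70 is the limit of the brighter 50% of probes, and all 5 nucleotide sugar carriers lie above it while most carriers of ions and organic ions lie below.

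None of the 136 members passed limma at an adjusted p under 0.05 over all 8445 genes, a threshold that 0.118% of all genes passed as lower and 0.0% as higher. The smallest adjusted p of a member was 0.0744. At an unadjusted p under 0.05 there were 12 members higher and 11 lower in the null arrays, 8.82% and 8.09% of the members, beside 9.65% and 6.83% of all genes tested. Of the 136 members, 6 passed the filter only through the genotype where they were high, since the mean log2 signal of the other genotype lay under 8.70. They were Slc16a9, Slc7a4, Slc1a1, Slc22a20, Slc38a4 and Slc5a2, and the counts include Slc16a9 as higher and Slc7a4 as lower. Counts with 1 array left out are not given, since 1 genotype then had 1 array. In those fits the members' median log2 difference ran from -0.13 to -0.07. With the array lot as a block the counts were 16 higher and 23 lower, 11.8% and 16.9% of the members, beside 13.3% and 11% of all genes (1124 and 930 of 8445), and 0 members passed the adjusted threshold, beside 0.0% of all genes. A difference of at least 1.5-fold in both lots was found for 11 members in each direction, 8.09% of the members, beside 8.54% of all genes as higher and 5.74% as lower. The null arrays lay wholly above the wild-type arrays for 25 members and wholly below them for 38, which is 18.4% and 27.9% of the members, beside 22.6% and 23.1% of all genes. Without the lot as a block, each of these shares lay near that of all genes, and nothing in them is particular to the members. In both lots alike, 44 members were higher and 54 lower, beside 33.6% and 36.8% of all genes. The members' median log2 difference was -0.09, with -0.12 in lot 1 and -0.00 in lot 2, beside -0.02 for all genes. In 38 members, or 27.9%, the 2 lots had opposite signs, beside 29.6% of all genes. When the brightest 25% of probes were tested in place of 50%, 7 of 47 members (14.9%) passed the adjusted threshold, beside 5.94% of 4967 genes, namely Slc38a5, Slc39a8, Slc46a3, Slc38a9, Slc30a4, Slc4a8 and Slc12a4. With a variance trend in the model 6 of 136 (4.41%) passed, the same without Slc30a4, beside 3.49% of all genes.

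**Figure D2:**
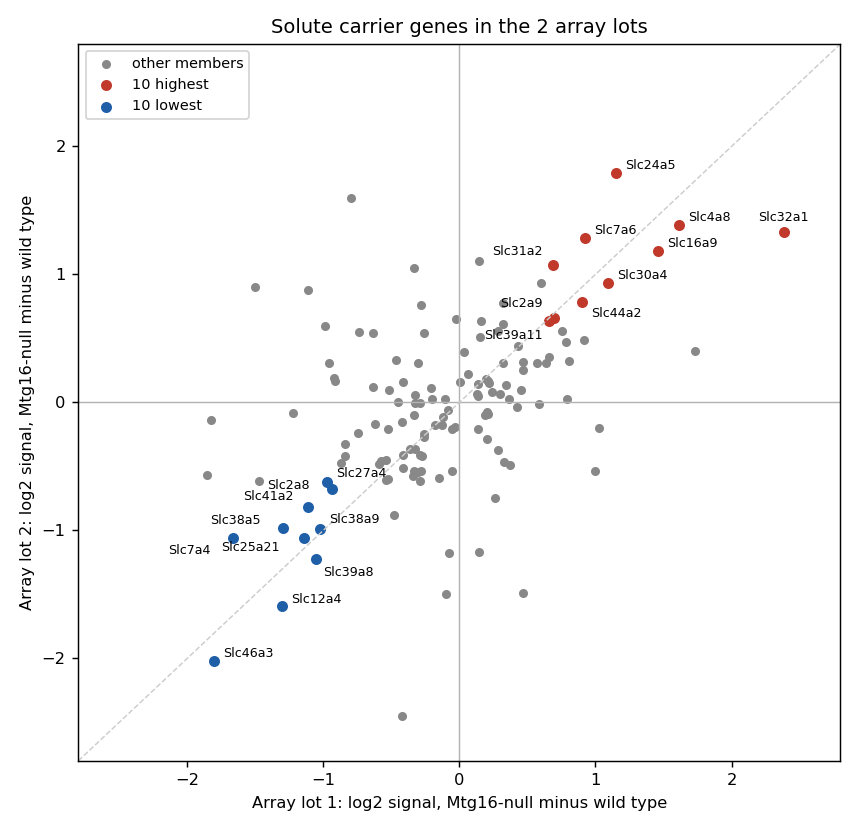
Log2 signal, Mtg16-null minus wild type, of the 136 members in array lot 1 (x axis) and array lot 2 (y axis), with the 10 highest (red) and the 10 lowest (blue) by the smaller of both within-lot differences and the dashed line of equal differences. Slc46a3 lies at -1.80 and -2.02 and Slc4a8 at 1.61 and 1.39, and 38 members have opposite signs in the 2 lots.

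Slc46a3 had the lowest repeated difference. It encodes a lysosomal membrane transporter of the family of the proton-coupled folate transporter. It read 6709 and 5959.7 units on the null arrays and 23371 and 24150.0 on the wild-type arrays. Both null arrays were far below both wild-type arrays, in each lot. The log2 difference was -1.91 (SE 0.18), 3.76-fold lower, with a limma adjusted p of 0.0744, and leaving out any 1 array kept it between -2.00 and -1.82. Slc12a4, the potassium and chloride cotransporter KCC1 that takes part in volume control of red cells, read 2611 and 2702 units on the null arrays and 6446 and 8149 on the wild-type arrays. The groups did not overlap, and the log2 difference was -1.45 (SE 0.20, limma adjusted p = 0.0975). It is 1 of 9 members on chromosome 8, which also carries Cbfa2t3 and, in mice of an early backcross generation, can carry DNA of the donor strain. Of those 9, 1 was higher (Slc7a6) and 1 lower (Slc12a4) at an unadjusted p under 0.05, and their median log2 difference was -0.03. The part of donor DNA, linked to Cbfa2t3 or elsewhere in the genome, was not tested for any member.

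At the other end stood Slc4a8 and Slc32a1. Slc4a8, a sodium-driven exchanger of chloride for bicarbonate that removes acid from cells, read 9896 and 7348 units on the null arrays against 3233 and 2809 on the wild-type arrays. All null values exceeded all wild-type values, and the log2 difference was 1.501 (SE 0.23), 2.83-fold higher, with a limma adjusted p of 0.104. Slc32a1, the vesicular carrier of GABA and glycine known from inhibitory neurons, read 3979 and 5663 units on the null arrays against 762 and 2252 on the wild-type arrays. The null arrays were again the higher ones in both lots, but the wild-type arrays were far apart. Its log2 difference of 1.86 (SE 0.60, limma adjusted p = 0.264) came to 1.08 when wild-type array 1 was left out and to 2.64 when wild-type array 2 was.

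The sequences before the start of transcription of these 4 genes are shown because they had the highest and lowest repeated differences, and because E proteins, DNA-binding partners of Mtg16, bind the hexamer CANNTG. They are the 250 bases upstream of the annotated start, 5′ to 3′ in the sense of the gene, from RefSeq's annotation of GRCm38.p6, at chr15:100761497-100761746 (plus strand) for Slc4a8, chr2:158610508-158610757 (plus strand) for Slc32a1, chr5:147894816-147895065 (minus strand) for Slc46a3 and chr8:105966116-105966365 (minus strand) for Slc12a4. Capitals mark each CANNTG, a pattern that a search of either strand finds at the same places.
Slc4a8: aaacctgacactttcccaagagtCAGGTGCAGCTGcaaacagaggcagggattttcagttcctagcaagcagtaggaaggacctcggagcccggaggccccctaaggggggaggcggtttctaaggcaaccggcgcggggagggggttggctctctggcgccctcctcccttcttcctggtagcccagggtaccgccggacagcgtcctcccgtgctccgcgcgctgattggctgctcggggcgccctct
Slc32a1: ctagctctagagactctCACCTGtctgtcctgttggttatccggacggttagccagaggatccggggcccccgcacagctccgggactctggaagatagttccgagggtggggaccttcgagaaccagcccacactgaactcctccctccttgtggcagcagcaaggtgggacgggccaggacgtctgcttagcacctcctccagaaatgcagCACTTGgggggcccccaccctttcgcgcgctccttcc
Slc46a3: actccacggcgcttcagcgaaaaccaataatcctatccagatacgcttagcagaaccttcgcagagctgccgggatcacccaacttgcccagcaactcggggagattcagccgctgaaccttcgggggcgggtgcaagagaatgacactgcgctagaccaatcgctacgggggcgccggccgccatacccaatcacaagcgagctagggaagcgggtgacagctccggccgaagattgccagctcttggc
Slc12a4: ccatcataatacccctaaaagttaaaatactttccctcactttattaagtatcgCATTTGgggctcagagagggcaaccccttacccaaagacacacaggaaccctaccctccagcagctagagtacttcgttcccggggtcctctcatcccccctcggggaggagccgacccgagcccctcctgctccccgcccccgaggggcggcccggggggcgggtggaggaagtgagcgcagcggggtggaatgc
Both higher genes held 2 such hexamers, Slc12a4 held 1 and Slc46a3 held 0. In Slc4a8 the 2 hexamers lie directly side by side. The hexamer is common, present in the same window of 66.0% of the 27025 genes in the promoter table and of 69.8% of the 106 members found there. A match of letters is a description and not a binding site.

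Amino acid carriers went in both directions. Of the 25 members, 2 were higher (Slc32a1 and Slc7a6) and 4 lower (Slc7a4, Slc7a7, Slc38a5 and Slc38a9) at an unadjusted p under 0.05, beside 9.65% and 6.83% of all genes. Of these, Slc7a4 passed the filter only through its wild-type signal. The median log2 difference of the class was 0.14, but -0.08 in lot 1 and -0.09 in lot 2, and it ran from -0.26 to 0.04 when 1 array was left out, positive only without null array 2, so the class had no settled direction. Slc38a5, a sodium-coupled carrier of glutamine, glycine and serine, read 63963 and 58329 units on the null arrays and 157486 and 115128 on the wild-type arrays. Its groups were well apart, and limma gave -1.14 (SE 0.23, adjusted p = 0.134) on the log2 scale. Slc38a9, the arginine sensor of lysosomes that acts on the growth kinase complex mTORC1, read 6413 and 6493 units on the null arrays and 13044 and 12865 on the wild-type arrays. Replicates of this gene were nearly equal within each genotype, and the log2 difference was -1.01 (SE 0.16, limma adjusted p = 0.106). Slc1a5, another carrier of glutamine, showed no such gap. It read 16426 and 14012 units on the null arrays and 16011 and 10678 on the wild-type arrays. Slc38a2, which cells use under amino acid shortage, read 18992 and 16638 on the null arrays and 17302 and 15094 on the wild-type arrays, and the genotypes overlapped for both genes.

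The light subunits Slc7a6 and Slc7a7 both pair with the heavy subunit Slc3a2 (CD98) and exchange cationic for neutral amino acids. Slc7a6 read 2463 and 2519 units on the null arrays against 1300.0 and 1033 on the wild-type arrays. Slc7a7 read 1011 and 1216 units on the null arrays against 3657 and 1801 on the wild-type arrays. Neither pair of groups overlapped, and the relatives lay on opposite sides, with log2 differences of 1.10 (SE 0.20, limma adjusted p = 0.118) for Slc7a6 and -1.21 (SE 0.40, limma adjusted p = 0.275) for Slc7a7, whose within-lot values were -1.85 and -0.57 and whose difference came to -0.70 without wild-type array 1. The gap between the genes was not tested. Slc3a2 read 11050.0 and 7855 units on the null arrays against 13946 and 11401 on the wild-type arrays, with a log2 difference of -0.44 (limma adjusted p = 0.510) that ran from -0.68 to -0.19 with 1 array left out. Its null arrays were the lower ones, though null array 1 came close to wild-type array 2. Slc7a4, a relative of the cationic carriers for which no transport has been shown, read 196 and 401 units on the null arrays against 621 and 836 on the wild-type arrays. Its null mean of 299 units was inside the 94.5 to 310 units that 3 Y-linked probes gave on these arrays of female mice, so its size is not resolved from background, and the difference of -1.36 came to -0.84 without null array 1.

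Of 16 tested genes of a list for the response to amino acid supply, 1 was higher and 3 were lower at an unadjusted p under 0.05, beside 9.65% and 6.83% of all genes. Asns, asparagine synthetase, read 18285 and 16787 units on the null arrays against 69944 and 64707 on the wild-type arrays. Sesn2, a leucine sensor upstream of mTORC1, read 2289 and 2053 units on the null arrays against 5759.9 and 4884 on the wild-type arrays. Both genes were lower on each null array than on each wild-type array, with log2 differences of -1.94 (SE 0.17, limma adjusted p = 0.0744) and -1.29 (SE 0.19, limma adjusted p = 0.101). The third lower gene was the stress factor Ddit3, at -0.61, and the higher one was Cebpb, a transcription factor of myeloid cells, at 1.10. Atf4, the transcription factor that drives this response through its translation, had a log2 difference of 0.09. The median of the list was -0.12, with -0.15 in lot 1 and 0.02 in lot 2, so it shared no direction.

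Mitochondrial carriers formed the largest class, with 27 members, and 20 of them had a log2 difference below 0, or 74.1%, beside 52.1% of all genes. This is a description with no test of the class. Differences were small: the class median was -0.26, with -0.26 in lot 1 and -0.15 in lot 2, and it ran from -0.28 to -0.17 when 1 array was left out. Below 0 were 19 of 27 in lot 1 and 16 of 27 in lot 2, beside 53.5% and 49.6% of all genes. At an unadjusted p under 0.05 there were 2 lower members, Slc25a21 and Slc25a44, and 0 higher, beside 6.83% and 9.65% of all genes, so the lower count was near the background. With the lot as a block there were 5 lower (Slc25a21, Slc25a24, Slc25a44, Slc25a15 and Slc25a38) and 0 higher, beside 11% and 13.3% of all genes. Slc25a21, the carrier of 2-oxoadipate from the breakdown of lysine and tryptophan, read 12211 and 9218 units on the null arrays against 26961 and 19205 on the wild-type arrays. The genotypes were apart in each lot, by -1.10 (SE 0.28, limma adjusted p = 0.189) on the log2 scale. Slc25a38, which brings in glycine for the first step of haem synthesis, read 4604 and 4300.3 units on the null arrays against 8229 and 5761 on the wild-type arrays. Its log2 difference was -0.63 (SE 0.25, limma adjusted p = 0.337), beside a median of -0.92 for the 9 erythroid markers tested.

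Other carriers of the class differed less. Slc25a44, a carrier of branched-chain amino acids, read 2915 and 2741 units on the null arrays against 4244 and 3740.3 on the wild-type arrays, without overlap, at a log2 difference of -0.50. Slc25a24 and Slc25a23, calcium-regulated carriers of ATP and phosphate, had log2 differences of -0.52 and -0.41, and Slc25a15, the ornithine carrier, one of -0.46. The carriers of the core of energy metabolism lay close to 0: Slc25a5 at -0.08, the phosphate carrier Slc25a3 at -0.13, the citrate carrier Slc25a1 at -0.18, and the aspartate and glutamate carriers Slc25a12 and Slc25a13 at 0.18 and 0.19. Slc25a28 (mitoferrin 2), which takes iron into mitochondria, had 0.16. Slc25a45 was the highest by the naming rule, with 3558 and 3192 units on the null arrays against 2846 and 2087 on the wild-type arrays, 0.47 higher on the log2 scale (SE 0.23, limma adjusted p = 0.441) and from 0.24 to 0.69 with 1 array left out. Slc25a20, the carnitine and acylcarnitine carrier of fatty acid oxidation, had a larger mean difference of 0.62 but 0.14 in lot 1 and 1.10 in lot 2.

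**Figure D3:**
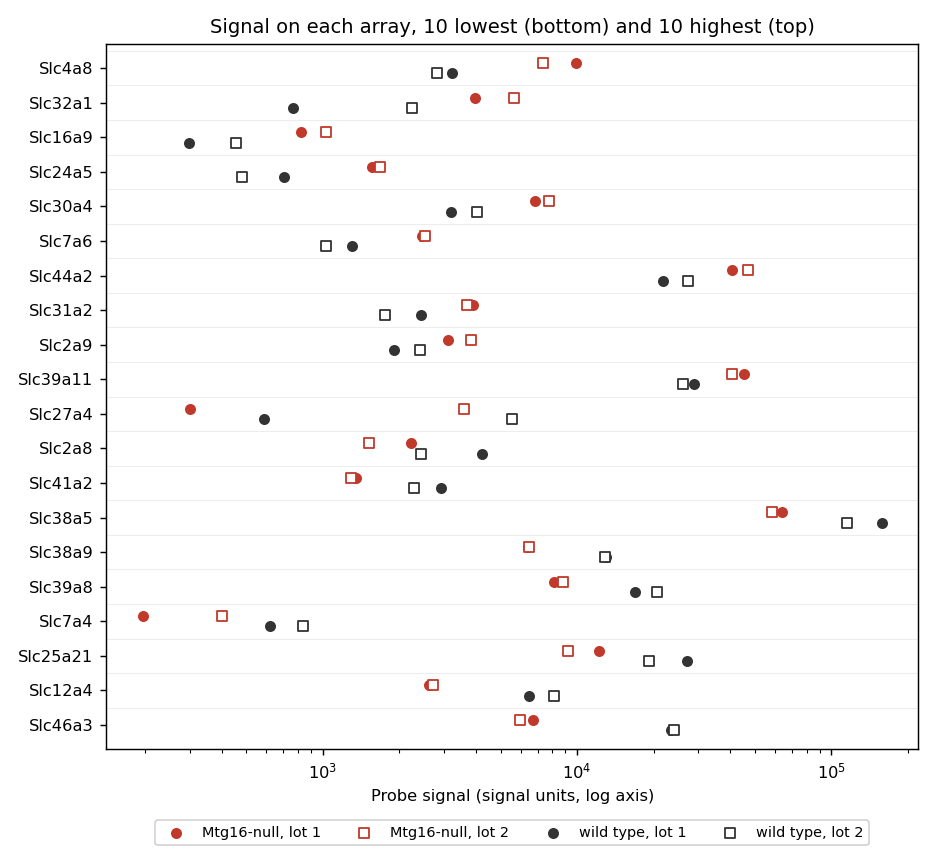
Probe signal on each array (x axis, signal units, log scale) for the 10 highest members (upper rows) and the 10 lowest (lower rows) by the smaller of both within-lot differences, red for Mtg16-null and black for wild type, filled circles for lot 1 and open squares for lot 2. The groups are apart in each row except that of Slc27a4, where both arrays of lot 2 lie above both arrays of lot 1.

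Carriers of folates, vitamins and nucleosides lay mostly below 0. In this class 8 of 9 members had a negative log2 difference, beside 52.1% of all genes. In both lots 7 of 9 did, beside 36.8% of all genes. This too is a description with no test of the class. The class median was -0.41, with -0.31 in lot 1 and -0.42 in lot 2, and it ran from -0.42 to -0.32 when 1 array was left out. Beside Slc46a3, Slc23a3, a relative of the ascorbate carriers, was lower at an unadjusted p under 0.05, which makes 2 of 9 beside 6.83% of all genes. Slc23a3 read 419.6 and 819 units on the null arrays against 1163 and 1256 on the wild-type arrays. Its log2 difference was -1.04 (SE 0.38, limma adjusted p = 0.300), from -1.47 in lot 1 and -0.62 in lot 2. Slc19a1, the reduced folate carrier, read 50991 and 56405 units on the null arrays against 61046 and 66820.4 on the wild-type arrays. Slc43a3, which equilibrates purine nucleobases, read 55801 and 54884 units on the null arrays against 69057 and 79841 on the wild-type arrays. The groups of both genes were apart but close, at log2 differences of -0.25 and -0.42. Slc5a6, the carrier of biotin and pantothenate, had -0.41, and the nucleoside carriers Slc29a2 and Slc29a3 had -0.35 and -0.06. Slc19a2, a thiamine carrier, was the exception at 0.24, from -0.28 in lot 1 and 0.76 in lot 2.

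Zinc carriers gave no common direction. Slc39 proteins bring zinc into the cytosol and Slc30 proteins move it out or into vesicles. Of 16 members, 2 were higher (Slc30a4 and Slc39a11) and 1 lower (Slc39a8) at an unadjusted p under 0.05, beside 9.65% and 6.83% of all genes, and the class median was -0.12, with 0.01 in lot 1 and 0.02 in lot 2. Slc39a8, an importer of zinc and manganese, read 8108 and 8827 units on the null arrays against 16868 and 20660.3 on the wild-type arrays. Slc30a4, which loads zinc into vesicles, read 6815 and 7750.4 units on the null arrays against 3196 and 4052 on the wild-type arrays. For each gene the groups were apart, in opposite senses, with log2 differences of -1.14 (SE 0.20, limma adjusted p = 0.112) and 1.01 (SE 0.21, limma adjusted p = 0.140). Slc39a11 read 45526 and 40512 units on the null arrays against 28802 and 26100.3 on the wild-type arrays, 1.57-fold higher. The remaining importers included Slc39a7, which releases zinc from the endoplasmic reticulum, with 71706 and 92550.2 units on the null arrays against 68546 and 79567 on the wild-type arrays, where the groups overlapped. Slc39a12 read 1395 and 193 units on the null arrays against 3022 and 105 on the wild-type arrays. Both arrays of lot 1 were high and both of lot 2 low, so its log2 difference of -0.12 says nothing about genotype.

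Among other metals, the copper carriers of family 31 lay on opposite sides. Slc31a1, the copper importer Ctr1, read 9309 and 10846 units on the null arrays against 13422 and 16453 on the wild-type arrays. Slc31a2, its relative in endosomes and lysosomes, read 3909 and 3702 units on the null arrays against 2423 and 1763 on the wild-type arrays. Neither gene's groups overlapped, with log2 differences of -0.56 (SE 0.21, limma adjusted p = 0.309) for Slc31a1 and 0.88 (SE 0.23, limma adjusted p = 0.204) for Slc31a2. The gap between the relatives was not tested. Slc41a2, a magnesium carrier, read 1346 and 1296 units on the null arrays against 2911 and 2287 on the wild-type arrays, at -0.97 (SE 0.21, limma adjusted p = 0.143).

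**Figure D4:**
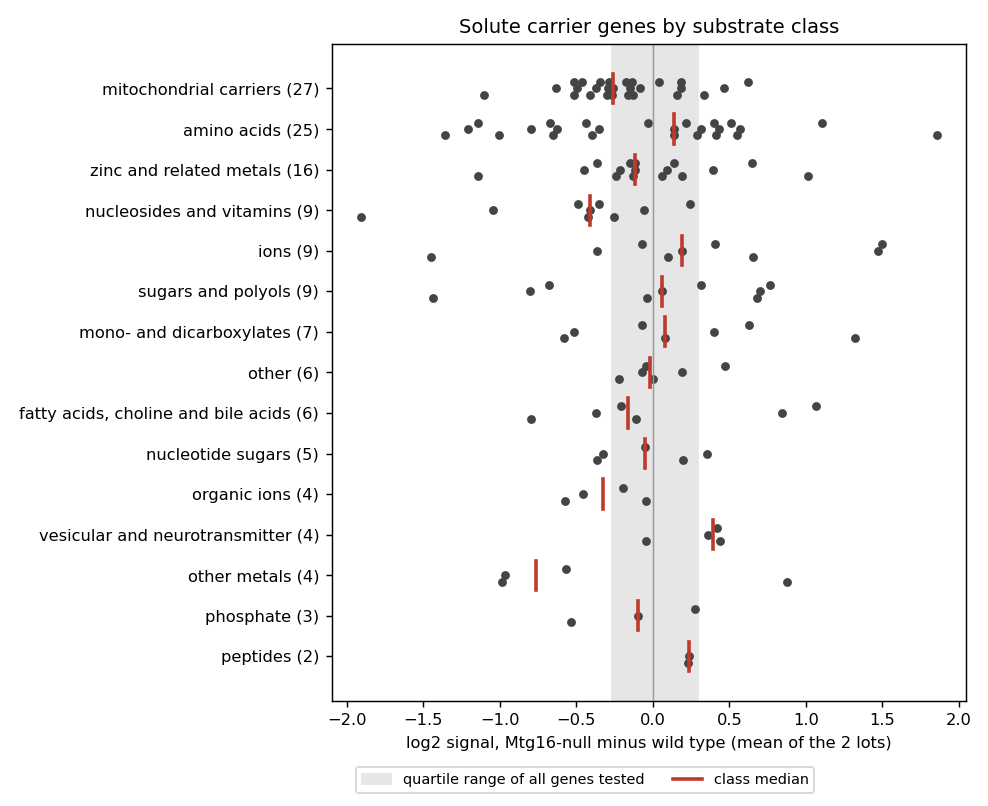
Log2 signal, Mtg16-null minus wild type (x axis), of each of the 136 members by substrate class (y axis, number of members in brackets), with the class median as a red bar and the quartile range of all genes tested, -0.27 to 0.29, in grey. The median is -0.26 for 27 mitochondrial carriers and -0.41 for 9 carriers of nucleosides and vitamins, while amino acid carriers spread from -1.36 to 1.86.

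Ion carriers were few but included members at both ends. Of 9 members, 3 were higher (Slc4a8, Slc24a5 and Slc12a9) and 1 lower (Slc12a4) at an unadjusted p under 0.05, beside 9.65% and 6.83% of all genes. The class median was 0.19, with 0.32 in lot 1 and 0.065 in lot 2, and it ran from 0.16 to 0.35 when 1 array was left out. Slc24a5, a sodium, calcium and potassium exchanger known from melanosomes, read 1566 and 1677 units on the null arrays against 706 and 483 on the wild-type arrays. Its groups were apart by 1.47 (SE 0.25, limma adjusted p = 0.111) on the log2 scale. Relatives of Slc12a4 had other values, and the gaps were not tested: Slc12a2, which carries sodium, potassium and chloride inward, had -0.36, Slc12a7, another potassium and chloride cotransporter, 0.41, and Slc12a9 0.66. The anion exchanger Slc4a2 had 0.10.

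Sugar carriers had a class median of 0.06, from 9 members of which 2 were higher and 0 lower at an unadjusted p under 0.05, beside 9.65% and 6.83% of all genes. With the lot as a block 3 were higher and 2 lower, beside 13.3% and 11% of all genes. The median ran from -0.069 to 0.19 when 1 array was left out, so its sign is not settled. Slc2a9, a carrier of urate in the glucose carrier family, read 3105 and 3816 units on the null arrays against 1913 and 2414 on the wild-type arrays. Slc2a3, the glucose carrier GLUT3, read 714 and 675 units on the null arrays against 378 and 481 on the wild-type arrays. In both genes all null values were above all wild-type values, at log2 differences of 0.68 (SE 0.23, limma adjusted p = 0.275) and 0.70 (SE 0.21, limma adjusted p = 0.237). Slc50a1, a sugar carrier of the SWEET family, had 0.77 (limma adjusted p = 0.314). Slc2a8, the intracellular glucose carrier GLUT8, read 2217 and 1525 units on the null arrays against 4239.7 and 2436 on the wild-type arrays. It was lower in each lot, but null array 1 and wild-type array 2 were close, and its log2 difference of -0.81 (SE 0.37, limma adjusted p = 0.411) came to -0.41 without wild-type array 1.

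Carriers of lactate and related acids had a median log2 difference of 0.08 over 7 members, with 0.16 in each lot. Slc16a9 (MCT9), a carrier of carnitine, read 819.8 and 1032 units on the null arrays against 299 and 454 on the wild-type arrays. The groups were apart by 1.32 on the log2 scale, given as a description, since the gene passed the filter only through its null signal and wild-type array 1 lay inside the range of the Y-linked probes. Slc16a3 (MCT4), which exports lactate, had 0.63 (limma adjusted p = 0.411), and Slc16a1 (MCT1), which carries lactate both ways, -0.07. Slc16a6 read 121923 and 108454 units on the null arrays and 121578 and 97032 on the wild-type arrays, which overlap. Slc13a1, which carries sulphate and stands in this class by family, had -0.58 but overlapping groups, and from -1.15 to -0.011 with 1 array left out. The partner proteins of the lactate carriers, taken from a list of related genes, went apart in value: Emb (embigin) read 61333 and 70964 units on the null arrays against 30919 and 31424 on the wild-type arrays, and Bsg (basigin) 110307 and 135611 on the null arrays against 146701 and 170422 on the wild-type arrays. Their log2 differences were 1.08 (SE 0.18, limma adjusted p = 0.108) and -0.37 (limma adjusted p = 0.495).

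In the class of fatty acid, choline and bile acid carriers, Slc44a2 was the highest of 6 members by the naming rule. It is a choline carrier whose human form bears a neutrophil antigen, and it read 40767 and 46900.1 units on the null arrays against 21864 and 27245 on the wild-type arrays. The groups were apart by 0.84 (SE 0.21, limma adjusted p = 0.189) on the log2 scale. Beside it, the median log2 difference was -3.81 for the 10 late neutrophil markers and 1.89 for the 7 early granulocyte markers. Slc27a4, which activates and takes up fatty acids, read 300.1 and 3584 units on the null arrays against 588 and 5528 on the wild-type arrays. Its arrays differed by lot far more than by genotype, and within each lot the null array was the lower one, by -0.97 and -0.63 on the log2 scale. Without the lot in the model the log2 difference was -0.80 (SE 1.69, limma adjusted p = 0.886), and with it as a block the limma p was 0.0171 unadjusted and 0.136 adjusted. Leaving out null array 1 gave 0.99 and leaving out wild-type array 2 gave 0.82, settings that break the pair of a lot.

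The 4 carriers of amine and acid stores of vesicles and nerve endings had a median of 0.39. Slc6a4, the serotonin carrier by which platelets fill their granules, read 6618 and 6107 units on the null arrays against 4455 and 4945 on the wild-type arrays. Slc18a2, the vesicular amine carrier of platelets and mast cells, read 3386 and 4349 units on the null arrays against 2774 and 2956 on the wild-type arrays. Both were higher without overlap, at log2 differences of 0.44 (limma adjusted p = 0.352) and 0.42 (limma adjusted p = 0.440), beside a median of 0.77 for 5 megakaryocyte markers, of which 4 were higher and Vwf lower at an unadjusted p under 0.05, and of -0.62 for 4 mast cell and basophil markers. Of the 5 nucleotide sugar carriers, 0 passed an unadjusted p under 0.05. Slc35a3, which brings UDP-N-acetylglucosamine into the Golgi, had the lowest log2 difference of them at -0.37, from -0.55 to -0.18 with 1 array left out, and Slc35a5 was the highest by the naming rule at 0.20. Slc20a1, the phosphate carrier Pit1, had -0.54, the lysosomal carriers Slc15a4 and Slc49a4 had 0.24 and 0.47 (from 0.15 to 0.80 for Slc49a4 with 1 array left out), and Slc14a1, the urea carrier of red cells, had -0.07 from -0.47 in lot 1 and 0.33 in lot 2.

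Transport genes outside the symbol rule went in both directions. Of 32 tested, 7 were higher and 7 lower at an unadjusted p under 0.05, or 21.9% each, beside 9.65% and 6.83% of all genes, with a median log2 difference of 0.00. That list too was drawn up with earlier results known. Slco3a1, an organic anion carrier, read 21054 and 20946 units on the null arrays against 5338 and 6089.5 on the wild-type arrays. Slco4a1, its relative, read 18004 and 22591 units on the null arrays against 5549 and 8687 on the wild-type arrays. Both were clearly above wild type on each null array, with log2 differences of 1.88 (SE 0.18, limma adjusted p = 0.0744) and 1.54 (SE 0.30, limma adjusted p = 0.130). At an unadjusted p under 0.05 the lower genes included Rhd, which is also in the erythroid list, at -1.73. Of red cells too were Rhag, an ammonium carrier, at -1.36 and Aqp1, a water channel, at -0.96. The Aqp1 signal was 169447 and 169959.9 units on the null arrays against 334076 and 326368 on the wild-type arrays.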

How the data were processed

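Per the labels' protocols, cRNA labelled with digoxigenin was read on 1-colour arrays of Applied Biosystems. The authors deposited 1 linear intensity per probe and array, from 28.2 to 3093946 signal units for 33012 probes. Sorted values differed between arrays by at most 11.1 units, so the values as deposited by the authors had been brought to 1 distribution. The background correction is not given in the sources used here. The median was 470.4 units on every array. Precision is limited by the small number of arrays, 4.

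Of the probes, 14411 had 1 gene symbol in the platform annotation, 247 had several and 18354 none. Entrez identifiers matched 14402 of them in RefSeq's table for GRCm38.p6, which changed 0 symbols and served for names and chromosomes. Signals were raised to the 1st percentile, 75.8 units, and log2 was taken. The brighter 50% of probes (16506) were kept, with the probe of highest mean per gene, which gave 8445 genes. Differences, null minus wild type, were fitted by lmFit and eBayes of limma 3.58.1 (R 4.3.3) with genotype as the only term and Benjamini-Hochberg adjustment over all 8445 genes, after a check on simulated data. Residual and prior degrees of freedom were 2 and 2.11. Of the members, 2 (Slc25a36 and Slc39a1) had 2 kept probes, with log2 differences of -0.35 from the brighter and 0.02 from the dimmer probe for Slc25a36 and 0.09 from both for Slc39a1.

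The series text states that the replicate number is the array lot, which pairs the arrays. Over genes, deviations from the group mean correlated at 0.50 between the arrays of a lot. Alternatives were other filters, no floor, cyclic loess, median scaling, the mean over probes, the lot as a block, a variance trend and each array left out. Substrate classes followed the family number with single-gene exceptions. Among these were Slc5a6 and Slc43a3, placed with nucleosides and vitamins, and Slc16a10, placed with amino acids. Other single genes can still carry other substrates than their class. The members, classes and lists were chosen with earlier results of these data known. Named genes were the 10 highest and 10 lowest members by the smaller within-lot difference where both lots had 1 sign, the highest and lowest by that measure in each class of 5 or more, the 5 of highest mean signal and Slc3a2, together 30 genes, and no member passed the test. Other named genes are examples of a class or list, picked with their values in view. Figures were drawn with matplotlib 3.10.9.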

Additional observations from a re-analysis of the deposited data

How the results depend on the processing

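Over alternatives, 144 summary values stayed the same and 40 moved. A count was held the same within 1.5 times, and a median within the standard deviation of the 2 lot medians, whatever its sign. The 30 named genes gave 325 values on the same side, 13 newly past the threshold and 8 of opposite sign. The cause was not tested unless the alternative itself removed genes or arrays. Without a filter on dim probes, 18 of all 255 solute carrier genes were lower at an unadjusted p (7.06%, beside 4.69% of 13840 genes). As higher there were 13 (5.1%, beside 6.24%). By 1.5-fold in both lots 21 were lower (8.24%, beside 6.05%) and 15 higher (5.88%, beside 7.72%). Medians in that setting were -0.070 (amino acids), -0.18 (mitochondrial), -0.040 (mono- and dicarboxylates) and -0.11 (sugars). With the brightest 25% of probes, which removes genes, 7 of 47 members (14.9%) passed the adjusted threshold, beside 5.94% of 4967 genes. At an unadjusted p under 0.05, 6 of the 47 were higher, where 1022 of 4967 genes passed in both directions together. By 1.5-fold in both lots 5 were higher and 6 lower, counts that have no all-gene share in this setting. Medians were -0.44 (amino acids), 0.84 (fatty acids and choline), -0.18 (mitochondrial), 0.54 (sugars) and 0.063 (zinc). Cyclic loess gave 0.12 (amino acids), 0.0815 (mono- and dicarboxylates) and -0.13 (zinc), and the mean over probes -0.18 (mitochondrial). With a variance trend 6 members passed the adjusted threshold. With the array lot as a replicate block 23 members were lower at an unadjusted p, and among the classes the counts moved by over 1.5 times for mitochondrial carriers (2 to 5 lower), amino acids (2 to 4 higher), mono- and dicarboxylates (1 to 2 higher), other metals (1 to 2 lower), sugars and organic ions (0 to 2 lower each), phosphate carriers and fatty acid and choline carriers (0 to 1 lower each). Leaving out 1 array, 4 to 15 members were higher at an unadjusted p, and medians ran from -0.26 to 0.044 (amino acids), -0.24 to 0.52 (fatty acids and choline), -0.065 to 0.41 (mono- and dicarboxylates), -0.42 to -0.32 (nucleosides and vitamins), -0.10 to 0.012 (zinc), -0.069 to 0.19 (sugars), 0.16 to 0.35 (ions) and -0.28 to -0.17 (mitochondrial). Single genes ran from -0.046 to 0.44 (Slc35a5), -0.50 to 0.33 (Slc25a5), -2.59 to 0.99 (Slc27a4), -0.080 to 0.24 (Slc16a6) and -0.043 to 0.33 (Slc39a7). Fold counts over both lots need all 4 arrays and were not run with an array left out. With 2 arrays a genotype, differences of single genes are limited by replicate spread, and signals at the level of Y-linked probes cannot be told from background.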

Other observations

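Of the 119 solute carrier genes outside the brighter 50% of probes, 53 were at or under the highest signal of the Y-linked probes, 310 units, on every array. Differences of at least 1.5-fold in both lots were found for 4 of the 119 as higher and 10 as lower, 3.36% and 8.4%, beside 6.43% and 6.54% of all 5395 genes outside the filter. The main fit left these genes out, and only the setting without a filter tested them. Slc2a4, the insulin-regulated glucose carrier GLUT4, read 140 and 120 units on the null arrays against 435 and 432 on the wild-type arrays. Slc44a4, a relative of the choline carriers, read 134 and 179 units on the null arrays against 487 and 481 on the wild-type arrays. Slc7a11, which brings in cystine in exchange for glutamate, read 128 and 64.6 units on the null arrays against 278 and 257 on the wild-type arrays. Slc25a51, which carries NAD into mitochondria, read 245 and 276 units on the null arrays against 613 and 607 on the wild-type arrays. All 4 were lower on both null arrays, at signals where the null values are no higher than those of Y-linked probes, so the sizes are not resolved. They were chosen after their values were seen.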
